A study of Mus musculus with 2 samples.

Results

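Mir142b, Mir150, Mir155, Mir146, Mir146b, Mir223 and Mir342 are mouse microRNA genes known from white blood cells, and they were followed here in the embryonic liver. The 7 genes were found by matching Ensembl identifiers to these symbols in the GENCODE mouse annotation, out of 1973 counted microRNA genes. The matching uses no measured value, but the symbols were chosen with earlier results of these data known. Their levels come from 2 small-RNA libraries of livers of B6NCrl mouse embryos at day 11.5, made from RNA under 30 nucleotides long. Both libraries are pools of male and female embryos, described as healthy and with no treatment or altered gene named. Replicate 1 pooled 109 embryos and the pool of replicate 2 was not stated. The libraries form a single group, so there is no contrast between conditions, and n = 2 throughout. A pool averages over embryos, so the spread between these libraries is not a spread between animals.

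MicroRNAs are cut from a hairpin precursor by Drosha and Dicer into short RNAs from its 5′ and 3′ arms, and the bases near the 5′ end of the mature strand, called the seed, pair with target messenger RNAs. At mid-gestation the liver is taken over by blood formation: stem cells and progenitors settle among the young hepatocytes and give rise mostly to red cells, with some myeloid cells and megakaryocytes, before lymphocytes mature elsewhere. MiR-142 is made across the blood cell lineages, miR-223 in myeloid cells, miR-155 and miR-146a in stimulated immune cells, and miR-150 in mature lymphocytes.

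The hairpins at the Mir142 locus are shown because the counted gene there lies across from the known precursor. Capitals mark the annotated mature arms, 5′ to 3′, in sequences from RefSeq on GRCm38.p6, the assembly that mm10 names.
Mir142 hairpin: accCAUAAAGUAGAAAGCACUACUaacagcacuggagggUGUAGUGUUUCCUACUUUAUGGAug
Mir142b hairpin: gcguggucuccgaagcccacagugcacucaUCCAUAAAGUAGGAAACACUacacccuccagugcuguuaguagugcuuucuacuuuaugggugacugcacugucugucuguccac
Mir142 spans chr11:87756864-87756927 on the plus strand and Mir142b spans chr11:87756841-87756955 on the minus strand. The 64 bases of the Mir142 hairpin lie whole within the reverse complement of the 115 bases of Mir142b, starting at its base 24. Mature miR-142b, of 20 bases, is the exact reverse complement of bases 4 to 23 of miR-142a-3p. Both genes lie in an intron of the long noncoding RNA gene Mir142hg, which runs on the plus strand.

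The mature sequences of the other genes are shown with the seed, bases 2 to 8, in capitals, because the seed decides which members can share targets.
miR-142a-5p: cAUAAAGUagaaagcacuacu
miR-142a-3p: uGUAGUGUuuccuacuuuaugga
miR-223-3p: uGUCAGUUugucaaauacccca
miR-223-5p: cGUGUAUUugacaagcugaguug
miR-342-3p: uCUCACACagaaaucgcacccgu
miR-342-5p: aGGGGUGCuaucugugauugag
miR-155-5p: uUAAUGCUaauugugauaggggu
miR-146a-5p: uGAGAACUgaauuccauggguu
miR-146b-5p: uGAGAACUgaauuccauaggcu
miR-150-3p: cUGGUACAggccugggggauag
MiR-146a-5p and miR-146b-5p were the only pair among them with the same seed. They share their first 17 bases and differ at G18A and U21C (miR-146a-5p first, positions counted from 1 at the 5′ end). No other mature mouse microRNA in the RefSeq table had the seed of any sequence printed here. The counts are per hairpin gene, so the 5p and 3p arms could not be told apart. The RefSeq sequences used here held no entry for miR-150-5p, so its seed was not compared.

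Levels are given as counts per 1000000 reads assigned to a microRNA gene on either strand (CPM), computed from the deposited read counts. For Mir142b the count is of the opposite strand, which is the strand of Mir142, and for the other 6 genes of the strand of the gene. All further counted genes were also taken on their own strand, even where most of their reads lay on the opposite strand. A read covers a whole mature microRNA, so counts were not divided by the length of the hairpin. Reads mapping to several places, 22.0% of all reads in replicate 1 and 22.6% in replicate 2, were assigned to no gene. Levels and ranks therefore hold among assigned reads only. The either-strand totals were 3670308 reads in replicate 1 and 1752390 in replicate 2, so 3 reads, the limit that a count of 0 allows, correspond to 0.817 CPM in replicate 1 and 1.71 in replicate 2. Intervals are exact Clopper-Pearson 95% intervals and, like these limits, cover counting error only.

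The 7 genes spanned most of the range of assigned reads per microRNA gene, from the locus at rank 4 to a gene with a single read. Reads at the Mir142 locus made up most of the reads of the 7 genes, and Mir223 and Mir342 came next. Mir155, Mir146 and Mir150 stood far lower, and Mir146b was not detected. Of the 7, 6 had at least 10 reads in both libraries, as did 348 of the 1973 genes, and 3 reached 1000 CPM in both libraries, as did 104 genes. Together they held 4.79% of the assigned reads in replicate 1 (interval 4.76 to 4.81) and 4.32% in replicate 2 (4.29 to 4.35), a mean of 4.55 ± 0.329% (SD, n = 2). In whole livers, fewer cells of a type and less RNA per cell cannot be told apart, so no level below counts leukocytes.

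**Figure D1:**
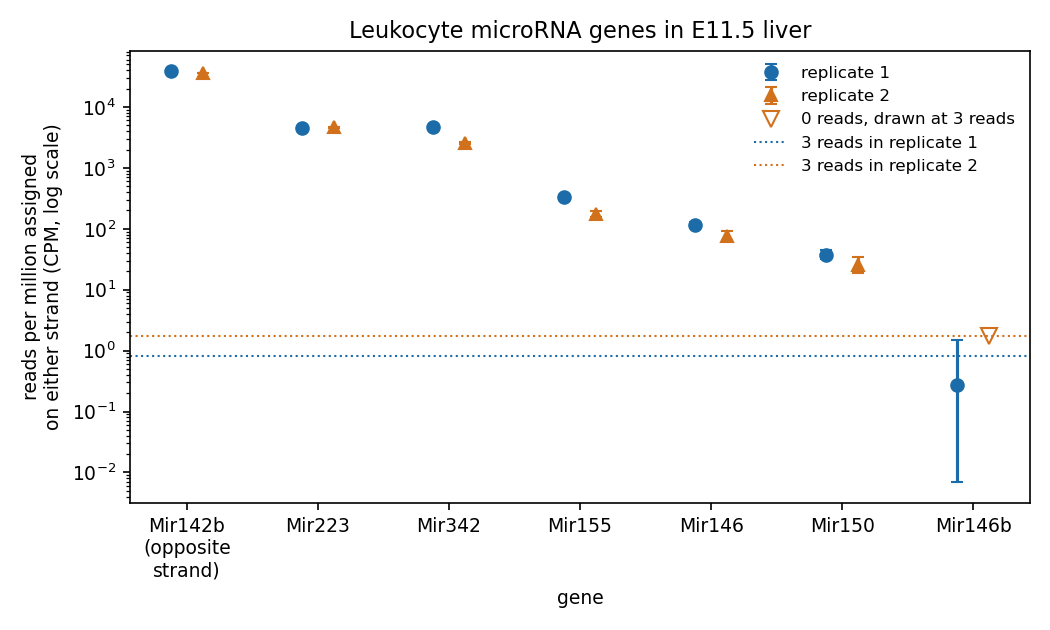
Levels of the 7 genes in CPM (vertical axis, log scale) in replicate 1 (circles) and replicate 2 (triangles), with exact 95% counting intervals as bars and dotted lines at 3 reads. Mir142b, read from the opposite strand, sits at 38247 and 35788 CPM, and Mir146b is the only gene under the dotted lines.

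Mir142 gave the highest level of the 7 by a wide margin. Its locus had 140377 opposite-strand reads, or 38247 CPM, in replicate 1 (interval 38051 to 38443) and 62714 reads, or 35788 CPM, in replicate 2 (35513 to 36064). The mean was 37017 ± 1739 CPM (SD, n = 2), and the locus ranked 4 in both libraries. Its values in the libraries lay close together, above those of every other member. In mice without miR-142, megakaryocytes, mast cells, dendritic cells and lymphocytes develop abnormally. The level stood 8.51 times above that of Mir223 in replicate 1 and 7.78 times in replicate 2. Against Mir342 the ratio was 8.27 in replicate 1 and 14.0 in replicate 2.

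On the strand of Mir142b itself there were 2 reads in replicate 1 and 3 in replicate 2, no more than a count of 0 allows. The own strand thus carried 0.00142% of the reads of the locus in replicate 1 (interval 0.000173 to 0.00515) and 0.00478% in replicate 2 (0.000986 to 0.0140). None of the other members had an opposite-strand read. For Mir223, with 16503 and 8060 reads, the exact interval allows an opposite-strand share of up to 0.0224% in replicate 1 and 0.0458% in replicate 2. For Mir150, with 137 and 45 reads, it allows up to 2.66% and 7.87%. Mir142b took the largest part of all opposite-strand reads of the table, 43.1% in replicate 1 and 37.4% in replicate 2. It was 1 of 10 counted genes with at least 10 opposite-strand reads, and more of them than own-strand reads, in both libraries. The rest of these were ranked and called detected on their own strand only. Gm24321, next after Mir142b in opposite-strand reads, had 71890 in replicate 1 and 41355 in replicate 2, more than the reads of Mir223. On its own strand alone, Mir142b would have been called not detected.

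**Figure D2:**
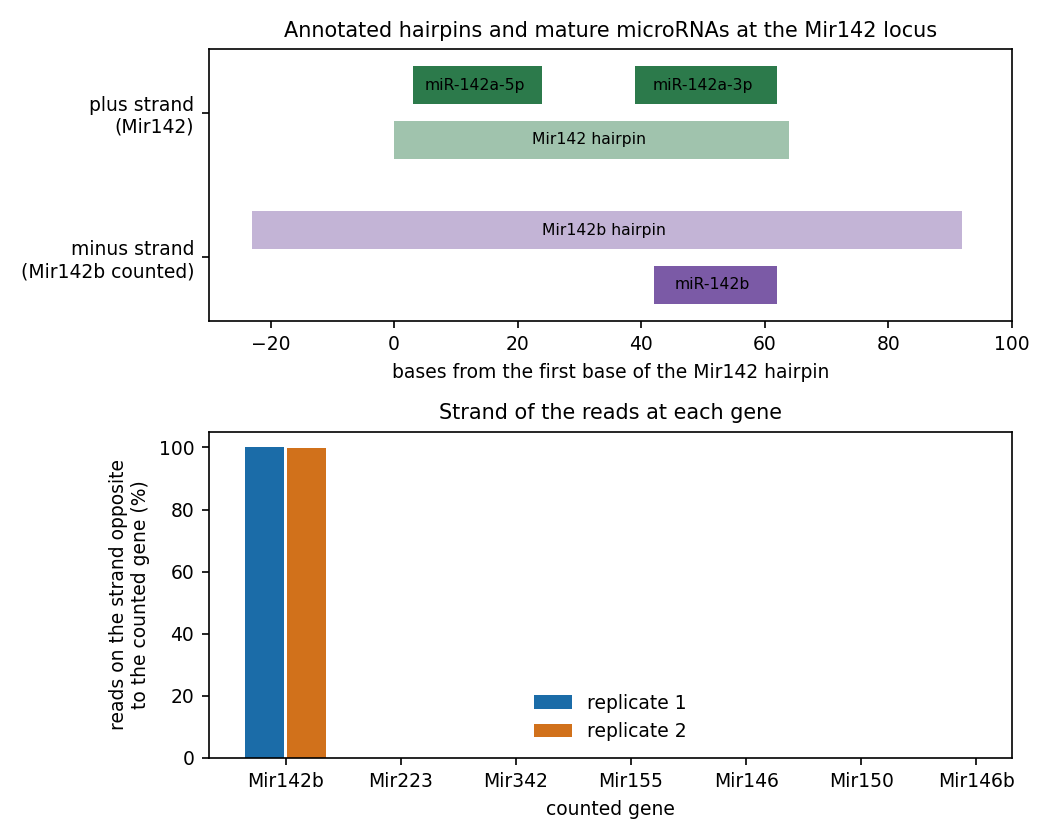
Top: the hairpins (pale) and mature microRNAs (dark) at the Mir142 locus by strand, in bases from the start of the Mir142 hairpin. Bottom: percentage of reads opposite in strand to the counted gene in each library, nearly 100% for Mir142b and 0 for the other genes with reads; Mir146b had no read in replicate 2.

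Around Mir142 in the order of either-strand means stood Mir17 and Mir335 above and Mir122 and Mir30e below. Mir17, of a cluster that promotes proliferation, had 70425 CPM in replicate 1 and 46140 in replicate 2, and the imprinted Mir335 had 63071 and 49290 CPM. Both were above the Mir142 locus in both libraries. Mir122, the leading microRNA of hepatocytes, had 27957 CPM in replicate 1 and 31183 in replicate 2. The Mir142 locus exceeded Mir122 by 1.37 times in replicate 1 and 1.15 times in replicate 2, and their ranges did not overlap. Mir30e lay below the Mir142 locus in both libraries, with 33990 CPM in replicate 1 and 17890 in replicate 2. Mir122 was also the gene nearest to the Mir142 locus by the distance of log2(CPM + 1) over the 2 libraries, at 0.49.

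**Figure D3:**
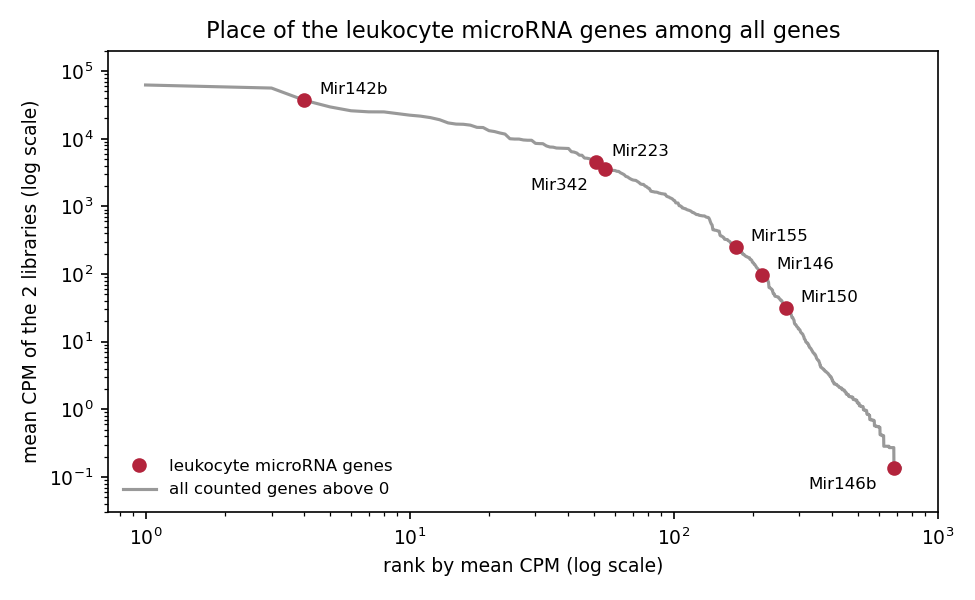
Mean CPM of all counted genes above 0 against their rank (both axes log scale), with the 7 genes marked. Mir142b stands at rank 4, Mir223 and Mir342 at ranks 51 and 55, and Mir155, Mir146 and Mir150 at ranks 172, 216 and 267. Only Mir142b is taken from the opposite strand, and all other genes from their own.

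Mir223 and Mir342 came next. Mir223 (ENSMUSG00000076066.1, chrX:96242817-96242926, plus strand, in an exon of the noncoding gene F630028O10Rik) restrains granulocyte numbers and activity in mice. It had 4496 CPM in replicate 1 (interval 4428 to 4565) and 4599 CPM in replicate 2 (4500 to 4701), a mean of 4548 ± 72.9 CPM (SD, n = 2). On this scale Mir223 had the smallest difference between the libraries of the detected members, whereas under TMM or DESeq2 scaling the Mir142 locus did, with log2 ratios of 0.04 and 0.02. Mir342 (ENSMUSG00000065436.1, chr12:108658620-108658718, plus strand, in an intron of Evl, an actin regulator) is induced by the myeloid factor PU.1 in human leukaemic cells. It had 4627 CPM in replicate 1 (4558 to 4697) and 2549 CPM in replicate 2 (2474 to 2624), a mean of 3588 ± 1470 CPM (SD, n = 2). Mir342 was thus above Mir223 in replicate 1 and below it in replicate 2, and the order of these genes was not resolved.

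Mir155 and Mir146, the members known from stimulated immune cells, were present at much lower levels. Mir155 (ENSMUSG00000065397.1, chr16:84714140-84714204, plus strand, in an exon of its host Mir155hg) is needed for normal antibody and T cell responses. It had 1224 reads, or 333 CPM, in replicate 1 (interval 315 to 353) and 303 reads, or 173 CPM, in replicate 2 (154 to 194), a mean of 253 ± 114 CPM (SD, n = 2). The ranges of Mir342 and Mir155 did not overlap, with Mir342 13.9 times higher in replicate 1 and 14.7 times in replicate 2. Mir146 (ENSMUSG00000065601.1, chr11:43374397-43374461, minus strand, with no other M21 gene over it) encodes miR-146a, which dampens Toll-like receptor signalling by repressing Traf6 and Irak1. It had 427 reads, or 116 CPM, in replicate 1 (106 to 128) and 135 reads, or 77.0 CPM, in replicate 2 (64.6 to 91.2), a mean of 96.7 ± 27.8 CPM (SD, n = 2). Mir155 lay above Mir146 in both libraries, by 2.87 times in replicate 1 and 2.24 times in replicate 2, without overlap.

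The paralogue of Mir146 gave almost nothing. Mir146b (ENSMUSG00000070127.2, chr19:46342762-46342870, plus strand, in an intron of Mfsd13a) had 1 read in replicate 1, or 0.272 CPM, and 0 in replicate 2. The upper limits of the exact intervals, which differ from the limit of 3 reads, were 1.52 CPM in replicate 1 and 2.11 CPM in replicate 2. Mir146 lay above both limits in both libraries, so nearly all assigned reads of this pair lay at Mir146. The hairpins share a run of 21 bases, and reads that match both fall in a class mapping to several places that was not assigned, which held 22.0% of all reads in replicate 1 and 22.6% in replicate 2. How many reads of these genes went there was not tested. No other member with a hairpin in the table shared more than 13 consecutive bases with any of the 1005 RefSeq hairpins, apart from the overlap of Mir142 and Mir142b.

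The lymphocyte gene was the lowest of the detected members. Mir150 (ENSMUSG00000065495.1, chr7:45121757-45121821, plus strand, with no other M21 gene over it) acts in B cell development by repressing Myb. It had 137 reads, or 37.3 CPM, in replicate 1 (interval 31.3 to 44.1) and 45 reads, or 25.7 CPM, in replicate 2 (18.7 to 34.4), a mean of 31.5 ± 8.24 CPM (SD, n = 2). Its counts were well above what a count of 0 allows in both libraries. Mir146 exceeded it by 3.12 times in replicate 1 and 3 times in replicate 2, with no overlap. Of the 6 pairs of neighbours in the order of means, 5 did not overlap and the pair Mir223 and Mir342 did.

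Of the 6 detected members, 5 were higher in replicate 1, the deeper library, as were 56.3% of all genes tested below. For each of 455 genes with at least 10 summed reads, the counts of the 2 libraries were set against their totals in an exact binomial test (two-sided, Benjamini-Hochberg adjustment over all 455). Counting noise is the only error in this test, and it compares libraries of 1 condition. Of the 6 members tested, 4 were called at an adjusted p under 0.05, all of them higher in replicate 1, where the background is 49.9% of all tested genes called in either direction and 27.7% called higher in replicate 1, with 22.2% called higher in replicate 2. None of the 6 was called and at least 2-fold apart, against 7.91% of all tested genes. The median log2 ratio of replicate 1 over replicate 2 was 0.56 for the 6 members and 0.06 for all tested genes. Mir146b, with 1 summed read, was not tested.

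Mir155 and Mir342 stood farthest apart between the libraries. The log2 ratio of replicate 1 over replicate 2 was 0.95 for Mir155 (adjusted p = 1.10e-26, exact binomial test) and 0.86 for Mir342 (adjusted p = 3.23e-305, exact binomial test). Mir146 had a log2 ratio of 0.59 (adjusted p = 5.38e-05, exact binomial test). The Mir142 locus was called as well, with a log2 ratio of only 0.10 (adjusted p = 5.44e-43, exact binomial test), on more reads than any other member had. That p-value depended on scaling: in the same exact binomial test, adjusted p was 2.52e-07 under TMM and 0.0157 under DESeq2 size factors. Mir150 missed the threshold with a log2 ratio of 0.53 (adjusted p = 0.0631, exact binomial test), and passed it at 0.0438 when only genes with at least 100 summed reads were tested. Mir223 was the only tested member higher in replicate 2, with a log2 ratio of -0.03 that missed the threshold (adjusted p = 0.165, exact binomial test). It passed when the libraries were scaled by TMM (log2 ratio -0.09, adjusted p = 1.10e-05, exact binomial test) or by DESeq2 size factors (-0.11, adjusted p = 8.48e-08).

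**Figure D4:**
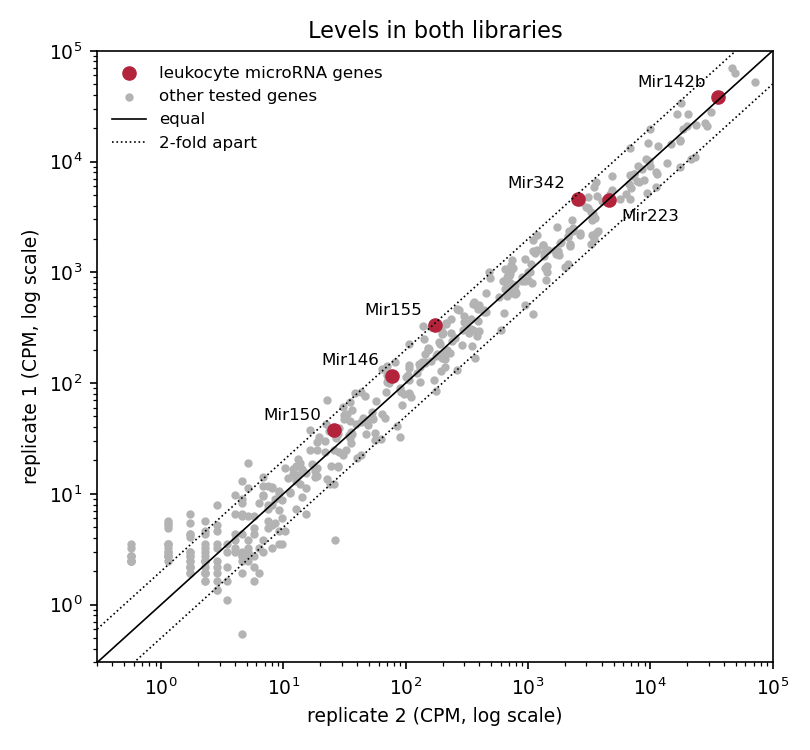
Level in replicate 1 against replicate 2 (CPM, log scales) for tested genes with reads in both libraries, with the 6 tested leukocyte microRNA genes in red, equality as a solid line and 2-fold differences dotted. Mir155 and Mir342 lie near the upper dotted line and Mir223 and Mir142b near equality; 5 tested genes with 0 reads in 1 library are not drawn.

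For 5 of the members, another gene had nearly the same level of assigned reads in both libraries. Mir342 was nearest to Mir181d, one of the miR-181 genes with roles in lymphocytes, which had 4320 CPM in replicate 1 and 2725 in replicate 2, a distance of 0.14 in log2(CPM + 1). Mir223 was nearest to Mir423, at 5059 and 4663 CPM, with a distance of 0.17. Mir155 was nearest to Mir1981, at 320 and 160 CPM, with a distance of 0.12. Mir146 was nearest to Mirlet7a-1, at 121 and 71.3 CPM, with a distance of 0.12, and Mir150 to Mir218-2, at 34.6 and 25.7 CPM, with a distance of 0.11. These distances rest on 2 libraries and describe the level of assigned reads only. For a gene with near-identical copies elsewhere, that level can fall short of its mature microRNA.

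Set beside lists of other microRNAs on the same either-strand scale, the 7 leukocyte genes lay between the hepatocyte list and the stem and progenitor list in both libraries when Mir142 was counted, and the other 6 overlapped the erythroid list when it was not. The Mir142 locus made up 79.9% of the 7 genes' reads in replicate 1 and 82.8% in replicate 2. Without it, the other 6 genes held 0.961% of the assigned reads in replicate 1 and 0.742% in replicate 2. The erythroid list, with 3 of 3 genes detected, held 0.759% in replicate 1 and 1.03% in replicate 2, led by Mir451a at 6830 and 8855 CPM. The miR-181 family, with 6 of 6 detected, held 0.967% and 0.718%. The ranges of these 3 shares overlapped. Reads that map to several places were left out of every list, so genes with near-identical copies can read too low. How many reads each list lost in this way was not tested. The hepatocyte list, led by Mir122 and with 4 of 6 genes detected, held 3.17% in replicate 1 and 3.44% in replicate 2, below the 7 leukocyte genes in both. The mesenchyme and smooth muscle list, with 6 of 6 detected, held 2.05% and 3.02%, led by Mir143.

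MicroRNAs known from blood stem and progenitor cells held the largest share of these lists, 9.55% in replicate 1 and 11.8% in replicate 2, with 6 of 6 genes detected. This place rests on Mir126a, without which the other 5 genes held 4.31% in replicate 1 and 4.52% in replicate 2, overlapping the 7 leukocyte genes. The list was led by Mir126a, which endothelium also makes in quantity, at 52347 CPM in replicate 1 and 72381 in replicate 2. Of its 6 tested genes, 1 was called higher in replicate 1 and 4 higher in replicate 2, where the background is again 27.7% and 22.2% of all tested genes. In the erythroid list 0 of 3 were called higher in replicate 1 and 2 of 3 higher in replicate 2. In the miR-181 family 3 of 6 were called higher in replicate 1 and 2 of 6 higher in replicate 2. In the hepatocyte list these counts were 3 and 2 of 6, and in the mesenchyme list 3 and 1 of 6. With 3 to 6 genes a list, nothing is read from these counts. The erythroid share was the lower one in replicate 1, where most leukocyte genes were higher, and its part in that difference was not tested. With 2 libraries, no test of the differences between lists was made.

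**Figure D5:**
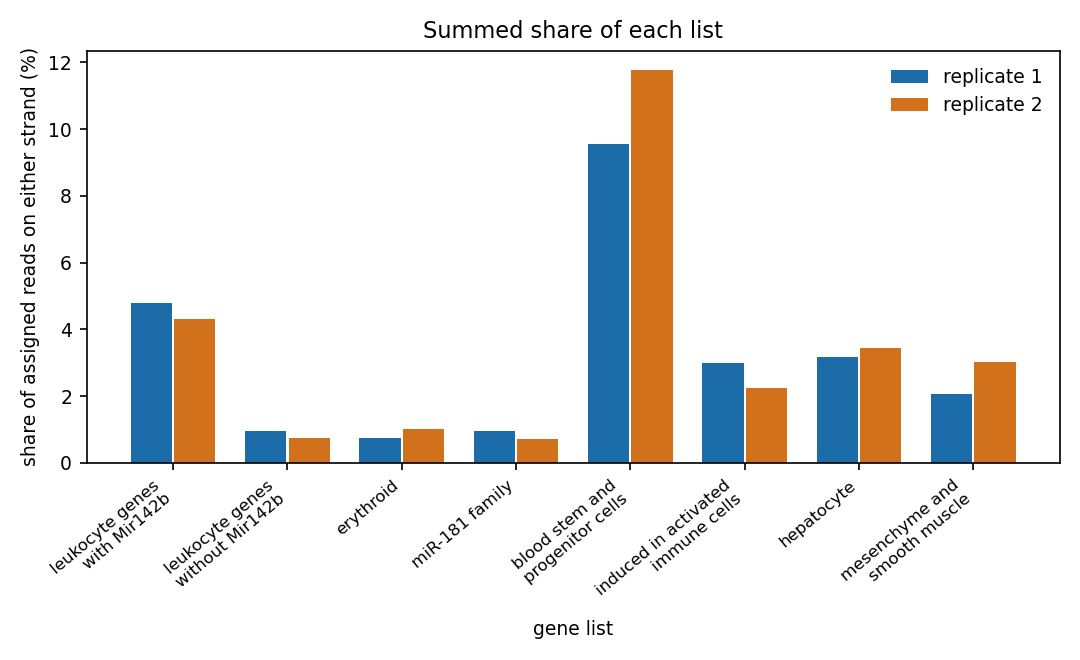
Share of the assigned either-strand reads (vertical axis, percent) held by the leukocyte genes with and without Mir142b and by 6 other lists, in replicate 1 (blue) and replicate 2 (orange). With Mir142b the leukocyte genes hold 4.79% and 4.32%, and without it 0.961% and 0.742%.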

How the data were processed

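Small-RNA libraries of E11.5 liver (replicates 1 and 2, 1 group) were analysed. The authors deposited raw read counts per microRNA gene, aligned to mm10 and counted on GENCODE M4, per the deposited descriptions of the files. Neither the aligner, the counter nor any trimming is named in the labels or file descriptions (not given in the sources used here). Columns hold reads on either strand, the strand of the gene and the opposite strand, a layout read from the values. The 4 summary classes that name no gene held 71.2% of reads in replicate 1 and 68.0% in replicate 2, counted without regard to strand, and were left out of totals. Of 1973 gene identifiers, 1894 were named from GENCODE M21, on the same assembly, by identifier without version. Sequences came from RefSeq (GRCm38.p6), where 6 of the 7 genes had a hairpin and all 7 a mature entry.

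Shares, CPM, exact intervals and exact binomial tests were computed with Python 3.11.15, scipy 1.17.1 and pandas 2.3.3, adding 0.5 to each count for log2 ratios. Alternative scalings used edgeR 4.0.16 (TMM) and DESeq2 1.42.0 (size factors) in R 4.3.3. The test was checked on counts simulated with counting noise only, which says nothing about its calls under variation between pools. The members and lists were chosen with earlier results of these data known. Named genes were all members, the 2 genes on each side of Mir142b in rank, the nearest gene to each detected member, and the leader of each list. P-values measure the difference between these libraries, which may be technical in part.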

Additional observations from a re-analysis of the deposited data

How the results depend on the processing

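No paired analysis was possible because both libraries belong to a single group. Of 86 values recomputed under an alternative other than leaving out a library, 70 stayed the same, 13 moved, 3 passed a threshold they had missed and 0 reversed. Levels and shares stayed the same if they lay within the spread between the libraries, and tests if they kept their side of the threshold. Numbers of called genes stayed the same if they lay within a fixed fold of the main number. Dividing by the same-strand total gave 5010 CPM for Mir223. It gave 40775 CPM for the Mir142 locus, which is not a share, because that total leaves out opposite-strand reads. Dividing by all reads of the library, unassigned ones included, gave 11236 CPM for the Mir142 locus, 1384 for Mir223, 1074 for Mir342, 75.7 for Mir155, 29.1 for Mir146 and 9.48 for Mir150, a lower scale by construction. The summed share of 4.55% came to 0.852% without the Mir142 locus, 0.938% when the other 6 genes were set over the same-strand total, and, chosen after seeing the data, 0.885% with the locus also out of the total. Genes called at least 2-fold apart numbered 36, and 18 with at least 100 summed reads, where fewer genes were tested. Adding Mirlet7e, read across from Gm25927, to the stem and progenitor list, also chosen after seeing the data, took its mean share to 11.0%, against 10.7%, and leaving Mir126a out of that list gave 4.42%. Leaving out a library leaves the value of the other, given in the report, and no test; with 2 libraries such a value always lies within 1 SD of the mean, so this says nothing about stability. At this depth a gene under 3 reads, as Mir146b was, could not be told from absent.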

Other observations

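A further list, of microRNAs that rise in activated immune cells, lymphocytes or mast cells, was present at 3.01% of assigned reads in replicate 1 and 2.25% in replicate 2. Of its 8 counted genes, 7 were detected, 4 were called higher in replicate 1 at an adjusted p under 0.05 (exact binomial test), and 0 higher in replicate 2, against a background of 27.7% and 22.2% of tested genes. Most of the share was Mir21a, which many cell types make, at 26726 and 20312 CPM in replicates 1 and 2. Mir182, of the cluster with Mir183 and Mir96, had 2180 CPM in replicate 1, against 1188 in replicate 2. Mir221 and Mir222, which repress the stem cell factor receptor Kit, had 381 and 208 CPM in replicate 1 and 236 and 153 CPM in replicate 2. Mir132 had 107 and 106 CPM in replicates 1 and 2, and its cluster neighbour Mir212 had 11.2 and 15.4 CPM. Mir147, known from stimulated macrophages, had 14 reads in replicate 1 and 9 in replicate 2, and was not detected by the rule of 10 reads in both. These genes other than the list's leader, Mir21a, were named after their values were seen.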
